A study of Mus musculus with 2 samples.

Results

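Muscle stem cells (satellite cells) with few transcripts of a short set of division and differentiation genes were examined in mouse plantaris muscle 4 days after tenotomy. The cells were chosen by their UMI counts of 19 genes in single-cell data, and 648 of 18975 kept cells met the rule. Of these, 162 came from the tenotomy library and 486 from the sham library. A barcode was kept with at least 500 unique molecular identifiers (UMIs, each standing for 1 captured transcript), at least 300 genes and at most 10% mitochondrial UMIs. A member then needed at least 2 UMIs over the marker genes Pax7, Myf5, Myod1, Cdh15 and Chrdl2. It could hold at most 1 UMI each of Ptprc (leukocytes), Pecam1 (endothelium) and Pdgfra (mesenchymal cells). It had to have fewer than 3 UMIs over the differentiation genes Myog, Mymk, Mymx, Tnnt2 and Actc1, and fewer than 2 over the cycle genes Mki67, Top2a, Cdk1, Ccnb1, Cenpf and Birc5. The values of these 19 genes chose the cells, so they are given below as a description.

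The tenotomy group was the plantaris of one side of 5 male C57BL/6 mice aged 12 weeks, and the sham group was the plantaris of the other side of the same mice. The series title calls the muscle mechanically loaded, and the sources do not name the tendon. Pools of 5 muscles were dissociated with collagenase, and sorting on Calcein AM and propidium iodide kept the living cells, from which each pool gave 1 library of 10x 3-prime counts. No group has a second library, so nothing was tested, and treatment and library cannot be told apart. Differences are between these libraries, and brackets hold 95% intervals that cover counting error only.

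Satellite cells lie between the muscle fibre and its basement membrane and rest in adult muscle, where Notch signalling and the calcitonin receptor help to hold them in quiescence. After injury or overload they become activated, divide as myoblasts and then differentiate and fuse with fibres under Myod1 and Myog, or return to rest. Enzymatic dissociation is itself known to induce immediate early genes in these cells, in mouse.

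The member cells carried the markers of the label, and the RNA of other cell types in them is described in the next paragraph. The libraries held 94556283 UMIs in 11950 tenotomy barcodes and 47781353 UMIs in 8463 sham barcodes, and the member cells 1355806 and 3202302 of them. The median member held 6814 UMIs from 2208 genes in the tenotomy library, against 6035 UMIs from 1830 genes in the sham library, with medians of 4.82% and 5.11% mitochondrial UMIs. At least 2 of the 5 marker genes were detected in 141 tenotomy and 425 sham members, and 21 and 61 members rested on 1 marker gene. At the edges of the rule, 30 tenotomy and 65 sham members had exactly 2 marker UMIs, while 60 and 104 cells just outside had 1. Exactly 2 differentiation UMIs were held by 4 tenotomy members and 1 sham member, and exactly 3, just outside, by 11 tenotomy cells and 0 sham cells. A single cycle UMI was held by 25 tenotomy and 13 sham members, and exactly 2, just outside, by 17 tenotomy cells and 0 sham cells. The libraries shared 33 barcodes among all cells, and 2 members carried one of them.

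RNA of other cell types was looked for with 9 marker lists. In 12 tenotomy and 45 sham members, at least 0.5% of the UMIs came from a single such list, a limit chosen after the data were seen. Mesenchymal markers were over it in 7 tenotomy and 27 sham members, macrophage markers in 3 and 12, neutrophil markers in 1 and 3, and endothelial markers in 0 and 25. Myofibre and tenocyte markers passed it in 1 cell each per library, pericyte markers in 0 and 2, Schwann cell markers in 0 and 1, and erythroid markers in 0 and 0. Summed over members, the macrophage list stood at 799.5 UMIs per 1000000 (CPM) in tenotomy and 229.8 CPM in sham, with all 15 genes detected in both. The neutrophil list stood at 432.2 and 278.5 CPM, with Cxcr2 at 0 in tenotomy and Mmp8 at 0 in sham, but 1 tenotomy cell held 70.6% and 3 sham cells 91.8% of those UMIs. The endothelial list was at 66.4 CPM in tenotomy and 546 CPM in sham members, and the mesenchymal list at 2045 and 2163 CPM. The pericyte and smooth muscle list, which includes Acta2 and Notch3, was at 1024 and 374.1 CPM, the myofibre list at 458.8 and 217.3, the tenocyte list at 125.4 and 103.4, the Schwann cell list at 33.2 and 146.1, and the erythroid list at 37.6 and 9.06 CPM. Without all cells over the limit, the macrophage list was at 394.7 CPM in tenotomy and 64.0 CPM in sham, the neutrophil list at 135.7 and 20.2, the endothelial list at 53.0 and 94.1, and the mesenchymal list at 793.6 and 1094 CPM. Leaving these cells out moved the fold of 31 of 166 measured named genes by over 1.5 times, many of them marker genes of other cell types, and for the genes described below that moved so, both values are given.

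Undifferentiated, non-cycling stem cells were a smaller share of the tenotomy library than of the sham library. They made up 1.44% (1.23 to 1.68) of kept tenotomy cells and 6.28% (5.75 to 6.84) of kept sham cells, a ratio of 0.230 (0.193 to 0.274). A share of a sorted pool depends on how many other cells entered it, so it does not count stem cells per muscle. Fewer cells of a type and more cells of other types cannot be told apart in it. Before the limits on differentiation and cycling, 441 tenotomy and 488 sham cells were myogenic. The members were 36.7% (32.2 to 41.4) of the myogenic cells in tenotomy and 99.6% (98.5 to 99.95) in sham. The tenotomy library also held 140 cycling, 74 differentiating and 65 cycling and differentiating myogenic cells, where the sham library held 2, 0 and 0. Without members that carried 3 or more UMIs of a short macrophage and neutrophil set, 78 tenotomy and 456 sham members were left, and the ratio of shares was 0.118.

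**Figure D1:**
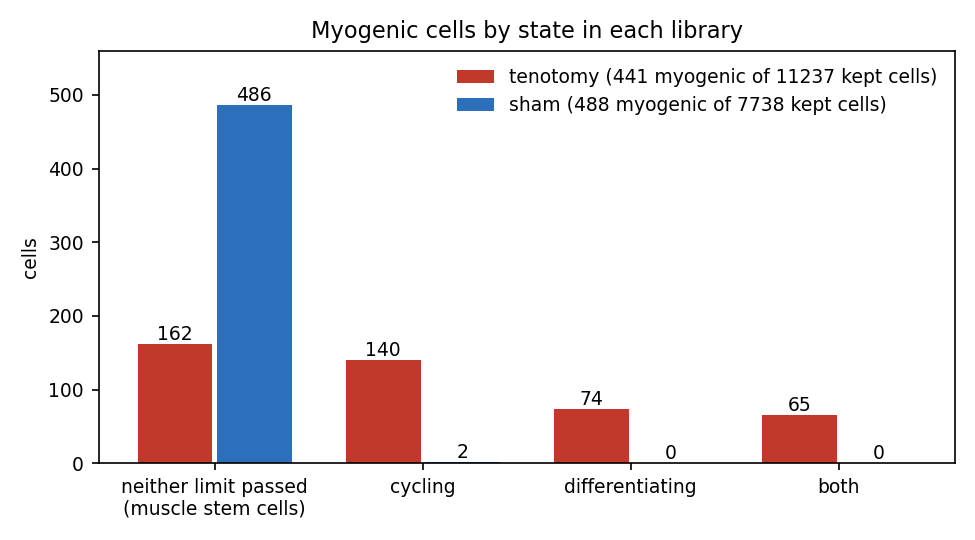
Number of myogenic cells (vertical axis, cells) in each state, tenotomy in red and sham in blue. The 162 tenotomy and 486 sham cells under neither limit are the stem cells described here, and cycling or differentiating cells stand almost wholly in the tenotomy library.

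Pax7, the paired-box factor that marks satellite cells, differed little between the libraries. It lies on chromosome 4 (GRCm38, 139737062 to 139833528, minus strand) and stood at 96.6 CPM in tenotomy and 118 CPM in sham members. Myf5 and Myod1, the myogenic basic helix-loop-helix factors, were at 222 and 194.7 CPM in tenotomy members and at 376 and 271 CPM in sham members. Cdh15 (M-cadherin, which binds stem cell to fibre) was at 239.7 CPM in tenotomy against 96.5 CPM in sham, and Chrdl2, a secreted BMP antagonist, at 100.3 against 387 CPM. These 5 genes entered the rule, which fixes that some of them are present in every member but not how they divide. UMIs of Pax7 and Myod1 occurred together in 15.4% (10.2 to 21.9) of tenotomy and 11.5% (8.82 to 14.7) of sham members. Pax7 alone was seen in 33.3% of tenotomy and 31.3% of sham members, and Myod1 alone in 17.9% and 16.3%. Thus most members showed at most one of the factors at this depth, in both libraries.

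Calcr, the calcitonin receptor gene and the only marker of the label that the rule did not use, was lower in tenotomy members. It stood at 17.0 CPM in tenotomy and 61.2 CPM in sham, 3.61-fold lower (2.34 to 5.83). With each cell thinned to 2500 UMIs, Calcr was detected in 8.86% of 158 tenotomy and 13.3% of 465 sham members, and unthinned in 20 of 162 and 136 of 486. Endothelial cells, which should lack it, showed it in 0% and 0.046% at the same depth, below both member shares. The median endothelial cell had 3720 UMIs in tenotomy and 3947 in sham.

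Each library's member cells were set against all its other kept cells, as a description of what marks them. By the ratio of CPM the 10 leading genes in tenotomy were Ibsp, Chrdl2, Tenm4, Erfe, Myf5, Chodl, Asb5, Pde1c, Nppc and Pax7. In sham they were Myod1, Pax7, Myf5, Chrdl2, Gal, Cdh15, Vgll2, Fndc3c1, Asb5 and Edn3. Ibsp, a bone sialoprotein, heads the tenotomy list through 1 cell, as described with the matrix genes below. Gal, the galanin neuropeptide gene, had 4627 CPM in sham members against 82.5 CPM in the other sham cells.

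Across 6786 measured genes, those with at least 50 UMIs over the members of both libraries and outside the rule, 1198 (17.7%) were at least 2-fold higher in tenotomy members and 562 (8.28%) lower by that factor or more. The median log2 fold was 0.23, with quartiles of -0.32 and 0.77. Centred on that median, 783 genes were higher and 808 lower, so the excess of higher genes depends on the scaling. Without the cells over the marker limit, 1133 of 6334 genes (17.9%) were higher and 524 (8.27%) lower. Folds are CPM of summed UMIs in tenotomy over sham, and list counts below are to be read against these percentages.

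The largest block on the lower side was the immediate early and stress genes, which encode fast-acting transcription factors and heat shock proteins. None of 32 measured genes (0) passed 2-fold upward and 26 passed it downward, and the median log2 fold was -1.71. Fos, the AP-1 subunit, had 115 CPM in tenotomy and 1209 CPM in sham members, 10.5-fold lower (8.95 to 12.4). Hspa1a, the inducible Hsp70 chaperone, had 195.5 against 2098 CPM, 10.7-fold lower (9.49 to 12.2). Egr1 was 4.99-fold lower (4.54 to 5.49), Junb 5.67-fold lower, Atf3 6.40-fold lower, and Nr4a1, an orphan nuclear receptor, 6.38-fold lower. Klf6, at 0.05, and Egr3, at -0.06, differed little on the log2 scale. Myc, which drives growth and ribosome production, was 3.15-fold lower (2.72 to 3.67).

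At 2500 UMIs a tenotomy member held a median of 20 UMIs of this list (5th to 95th percentile 5 to 47), and a sham member 56 (28 to 151.8). Of 158 tenotomy members, 103 lay below the 5th percentile of sham members, and 0 above the 95th. Endothelial cells (Pecam1 positive, 1236 in tenotomy and 2580 in sham) had a list median of -0.88, and mesenchymal cells (Pdgfra positive, 749 and 1439) one of -1.78. The background in those cells was 8.33% lower and 8.17% higher genes in endothelial cells and 17.1% lower and 13.8% higher genes in mesenchymal cells. The list passed 2-fold downward in 15 of 32 genes in endothelial and 23 of 32 in mesenchymal cells, so lower values were not limited to the stem cells.

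Promoter windows of Btg2 and Hspa1a, 2 of the genes farthest below sham, are printed because each holds a full match to a motif searched for. The windows run from 250 bases before to 50 after the start in RefSeq on GRCm38.p6, on the gene's own strand, and capitals mark the motif. Btg2 is on chromosome 1 (134079106 to 134079405, minus strand) with TGACGTCA, the cAMP response element. Hspa1a is on chromosome 17 (34972107 to 34972406, minus strand) with GAANNTTC, the core of a heat shock element. The sequences are
Btg2: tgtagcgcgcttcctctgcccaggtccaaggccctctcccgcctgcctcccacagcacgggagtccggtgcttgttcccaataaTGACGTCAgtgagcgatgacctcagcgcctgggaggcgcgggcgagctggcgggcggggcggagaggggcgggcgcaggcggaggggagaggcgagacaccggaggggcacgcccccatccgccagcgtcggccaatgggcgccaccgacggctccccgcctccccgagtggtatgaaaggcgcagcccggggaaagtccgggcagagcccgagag
Hspa1a: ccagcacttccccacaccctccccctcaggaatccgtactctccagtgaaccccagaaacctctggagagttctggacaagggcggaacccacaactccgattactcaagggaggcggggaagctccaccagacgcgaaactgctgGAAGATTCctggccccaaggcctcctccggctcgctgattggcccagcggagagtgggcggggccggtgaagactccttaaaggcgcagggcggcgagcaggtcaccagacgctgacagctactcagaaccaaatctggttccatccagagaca
Both strands were searched. TGACGTCA occurred in 1 of the 26 list genes with a window (Dusp1; Btg2 is in another list) and in 1.88% of 27025 promoter windows. GAANNTTC occurred in 4 of the 26 (Fosl2, Hspa1a, Hspa1b and Jun) and in 7.95% of all windows. The CArG box, a serum response factor motif, occurred in 0 of the 26 and in 1.57% of all windows. Windows of Fos and Nppc held 0 matches to the 3 motifs, which says only that these letters are not there. A match is a description and no evidence of binding.

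Genes of quiescence and growth arrest were also mostly lower. Among 27 measured genes 14 passed 2-fold downward and 1 upward, and the median log2 fold was -1.02. Btg2, an antiproliferative protein, had 115.8 CPM in tenotomy and 1192 CPM in sham members, 10.3-fold lower (8.78 to 12.2). Cdkn1a, the p21 inhibitor of cyclin-dependent kinases, was 3.19-fold lower (2.83 to 3.603), and Zfp36, which speeds mRNA decay, 6.80-fold lower. Klf9 was 3.62-fold lower and Cd34, a sialomucin of resting satellite cells, 2.68-fold lower (2.09 to 3.46), or 4.23-fold without the cells over the marker limit. The exception was Cdkn1c, the p57 inhibitor, at 151.9 CPM in tenotomy and 44.3 CPM in sham, 3.43-fold higher (2.75 to 4.27). It is also on the early differentiation and imprinted lists. In the tenotomy library it was at 76.8 CPM in cycling, 5024 CPM in differentiating and 1324 CPM in cycling and differentiating myogenic cells. Spry1, an inhibitor of FGF signalling, was 1.78-fold lower (1.40 to 2.29). Several of these genes, Btg2 and Zfp36 among them, are themselves known as immediate early genes. At 2500 UMIs the list took a median of 9.5 UMIs in tenotomy and 22 in sham members, and 79 of 158 tenotomy members lay below the 5th percentile of sham. The list median was -0.68 in endothelial and -1.45 in mesenchymal cells.

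Nppc, the gene of C-type natriuretic peptide, was on none of the lists and ranked beside Fos and Btg2. It lies on chromosome 1 (86666291 to 86670571, minus strand). It stood at 70.1 CPM in tenotomy and 710.7 CPM in sham members, 10.1-fold lower (8.26 to 12.6). Thinned members had a UMI of it in 17.1% of tenotomy and 44.5% of sham cells, against 0.22% and 0.46% of endothelial cells. Gal and Edn3, named for their ratio to other cells in sham, and Erfe, named so in tenotomy, also encode secreted proteins and were lower. Choice by a high ratio in sham favours genes lower in tenotomy, so the direction of Gal and Edn3 is a description. Secreted Igfbp5 and Pdgfa, described below, were higher. Gal had 1375 against 4627 CPM, 3.37-fold lower (3.21 to 3.53). Erfe, which encodes erythroferrone, had 164.5 against 822 CPM, 5.00-fold lower (4.35 to 5.75), and Edn3, endothelin 3, 33.9 against 126 CPM, 3.72-fold lower (2.74 to 5.16).

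Glucocorticoid-responsive genes were lower in 11 and higher in 1 of 18 measured, with a median of -1.20. Cebpd, a C/EBP factor, was 5.10-fold lower, Zbtb16 6.31-fold lower and Slc10a6, a carrier of sulfated steroids, 8.54-fold lower (5.33 to 14.6). Tsc22d3 (GILZ) was 1.76-fold lower and Fkbp5 1.40-fold lower (0.974 to 2.04), so these classic targets stayed inside 2-fold. Angptl4 was 4.79-fold higher. The list median was -0.71 in endothelial and -1.5 in mesenchymal cells. Maff, a small Maf factor, 6.39-fold lower, Dnajb1, an Hsp40 chaperone, 7.08-fold lower, Hspa1b, 8.14-fold lower, and Ypel4, with 1 UMI in tenotomy and 70 in sham and a ratio of 29.6 (5.15 to 1187), completed the lower genes named by the bound of the interval.

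**Figure D2:**
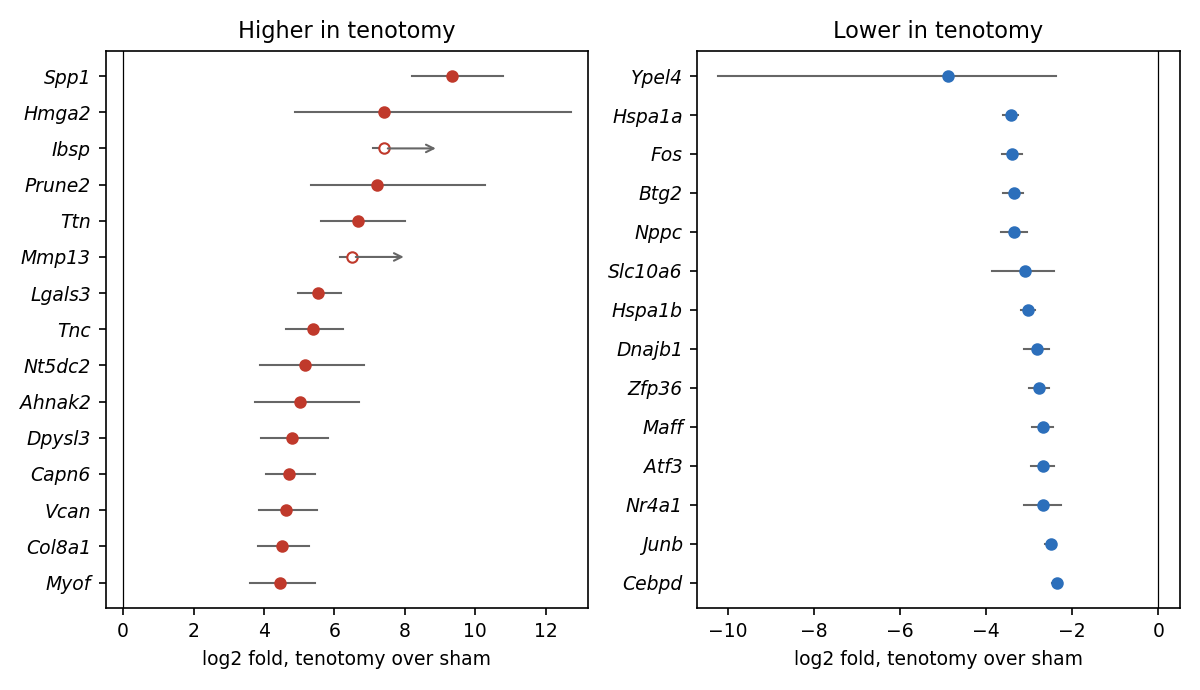
Log2 fold of tenotomy over sham (horizontal axes) for 15 higher and 14 lower genes whose 95% counting interval lies far from 0. Lines are intervals, and open circles with arrows are lower bounds of size for genes with 0 UMIs in sham (Ibsp and Mmp13, both carried by 1 cell). Spp1 has the largest fold and Hspa1a, Fos, Btg2 and Nppc are each about 10-fold lower.

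Matrix genes were mostly higher. Among 30 measured genes of basement membrane and interstitial matrix, 21 passed 2-fold upward and 0 downward, and the median log2 fold was 1.37. Without the cells over the marker limit, 17 of 27 were higher and 0 lower, with a median of 1.18. Tnc, the matricellular protein tenascin C, had 196 CPM in tenotomy and 4.68 CPM in sham members, 41.9-fold higher (24.9 to 75.9). Vcan, the proteoglycan versican, was 24.9-fold higher (14.6 to 45.5), and Col8a1, a short-chain collagen outside the list, had 136.5 against 5.93 CPM (14.3 to 39.1-fold higher), with 36.8% of its tenotomy UMIs in 1 cell. Col5a3, a type V collagen chain, had 184 against 57.1 CPM, 3.21-fold higher (2.65 to 3.91). Fn1, fibronectin, was 2.57-fold higher, or 5.64-fold without the cells over the marker limit, and Sparc 2.60-fold higher. Col4a1, of the basement membrane, was 1.51-fold higher (1.37 to 1.66) and Lama2, the laminin chain around fibres, 1.11-fold higher (0.911 to 1.34). Col15a1 was 1.78-fold lower (1.44 to 2.21).

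Spp1, which encodes the secreted phosphoprotein osteopontin, showed the largest fold with the settings above and was carried unevenly. It lies on chromosome 5 (104435118 to 104441050, plus strand) and had 1644 UMIs in 51 of 162 tenotomy members and 6 UMIs in 2 of 486 sham members. That is 1213 against 1.87 CPM, 647-fold higher (297 to 1766). A single tenotomy cell held 66.5% of the tenotomy UMIs, and the same cell held all 215 UMIs of Ibsp and all 114 of Mmp13 (collagenase 3). That cell met the rule through 2 Cdh15 UMIs, with 0 of the other 4 marker genes, and 1.18% of its 8484 UMIs were mesenchymal markers, which puts it over the marker limit. With cells scored as doublets left out, 160 tenotomy and 476 sham members remained. Ibsp and Mmp13 then gave no value, so that cell was among those left out, and the log2 fold of Spp1 was 7.73. Without the cells over the limit, Spp1 had 375.7 CPM in tenotomy and 0.342 CPM in sham, with 454 and 1 UMIs and a ratio of 1098 (196 to 43450). Its log2 fold, 9.34 above, ran from 5.69 to 12.9 over the alternatives. It was 5.69 with the rule on cells thinned to 2000 UMIs, 6.2 with at most 5% mitochondrial UMIs and 7.01 with at least 1 Pax7 UMI. Ttn was at 6.3, 7.5 and 8.69 there, so the first rank of Spp1 depends on the setting. Thinned endothelial cells had a UMI of Spp1 in 11.3% of tenotomy and 0.046% of sham cells, against 20.3% and 0.215% of members. The part of Spp1 RNA from outside the members in these values was not tested. Lgals3, galectin 3, also abundant in macrophages, had 364 against 7.81 CPM, 46.7-fold higher (31.2 to 72.8), in 23.4% of thinned tenotomy and 1.29% of sham members against 14.2% and 6.71% of endothelial cells. With the cells over the marker limit left out, Lgals3 had 350.0 against 2.74 CPM, 127.8-fold higher (64.3 to 298.1) on 8 sham UMIs. Without members that carried 3 or more macrophage or neutrophil UMIs, the log2 folds were 5.92 for Lgals3 and 5.72 for Tnc.

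Collagen 1 and 3 genes are also products of mesenchymal cells. Col1a2 had 1008 CPM in tenotomy against 152.7 CPM in sham members, 6.60-fold higher, but 22.0% and 57.5% of those UMIs lay in 1 cell of each library. Apart from the cells over the marker limit, Col1a2 had 436.9 against 27.7 CPM, 15.8-fold higher (12.4 to 20.2). Col1a1 was 4.62-fold higher, with a log2 fold of 2.21 that was 0.52 with at least 1 Pax7 UMI, and Col3a1 was 3.76-fold higher, with a log2 fold of 1.91 that was 1.0 without those cells. At 2500 UMIs the matrix list took a median of 17 UMIs in tenotomy and 6 in sham members, and 83 of 158 tenotomy members lay above the 95th percentile of sham members. The list median was 1.12 in endothelial and -0.10 in mesenchymal cells. Among proteases, inhibitors and crosslinking genes, 7 of 20 were higher and 2 lower, with a median of 0.43. The counts were 7 and 5 of 19 without the cells over the marker limit. Lox, the lysyl oxidase, was 10.4-fold higher (7.39 to 15.02), Timp1, a metalloprotease inhibitor, 8.61-fold higher, and Mmp14, a membrane metalloprotease, 3.00-fold higher. Timp4 had 1 UMI in tenotomy and 92 in sham, a ratio of 39.0 (6.82 to 1555), and it was detected in 31.6% and 87.8% of endothelial cells. Once the cells over the marker limit were left out it had 0 and 24 UMIs, which is at least 3.31-fold lower with 3 UMIs in place of 0, so most of its sham UMIs lay in cells with RNA of other types.

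Genes of energy supply and the cytoskeleton were higher together. Among 34 nuclear genes of oxidative phosphorylation 22 passed 2-fold upward and 0 downward, and the median was 1.16 (0.43 in endothelial and 0.80 in mesenchymal cells, where 1 and 8 genes passed 2-fold). With those over the marker limit left out, 23 of 34 were higher, with a median of 1.20. Uqcrc1, of complex III, was 4.17-fold higher (3.28 to 5.31), Atp5o, of the ATP synthase, 3.82-fold higher and Ndufa4 2.98-fold higher. At 2500 UMIs the list took a median of 23 UMIs in tenotomy and 14 in sham members, and 87 of 158 tenotomy members lay above the 95th percentile of sham. In glycolysis 7 of 18 genes were higher and 0 lower, with a median of 0.71 (0.44 in endothelial and 1.04 in mesenchymal cells). Pgk1 was 4.34-fold higher and Gapdh 2.59-fold higher.

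Of 41 actin, tubulin and motility genes 18 were higher and 1 lower, with a median of 0.95. That median was 0.63 in endothelial and 1.08 in mesenchymal cells, so higher values were not limited to the stem cells. S100a6, a calcium-binding protein, had 2175 CPM in tenotomy and 299.5 CPM in sham, 7.26-fold higher (6.75 to 7.82), and Tpm2, a tropomyosin, was 7.43-fold higher, a log2 fold of 2.89 that was 0.74 at the lowest over the alternatives. Acta2, smooth muscle actin and outside that list, had 530 against 71.5 CPM, 7.42-fold higher (6.38 to 8.64), and was seen in 42.4% of thinned tenotomy and 11.2% of sham members against 8.56% and 4.05% of endothelial cells. The per-cell median of the list was 84.5 UMIs in tenotomy and 46 in sham. Proteasome and folding genes were higher in 10 and lower in 1 of 33, with a median of 0.65 (0.57 in endothelial and 0.95 in mesenchymal cells). Psmb5 was 2.74-fold higher. Ribosome biogenesis genes stayed near the background, with 2 higher and 1 lower of 23 and a median of 0.29.

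**Figure D3:**
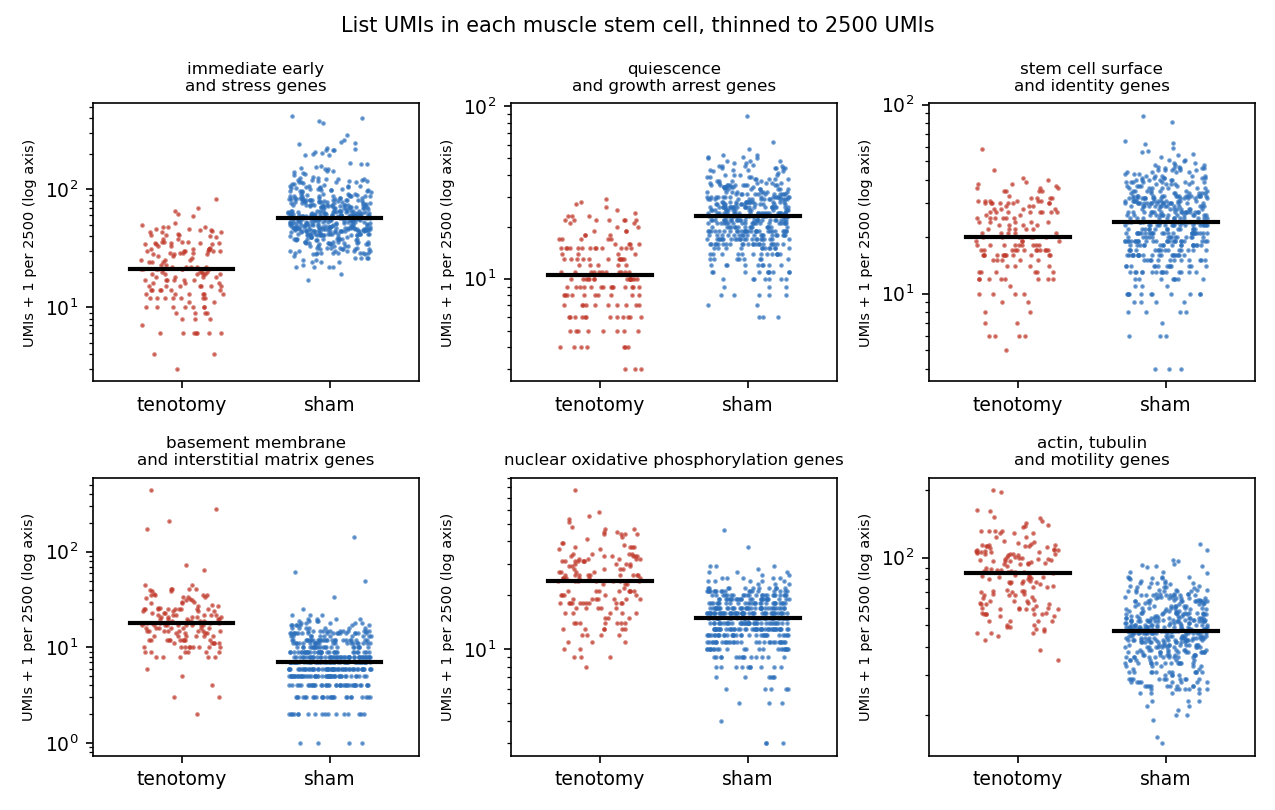
UMIs plus 1 of 6 gene lists in each stem cell after thinning to 2500 UMIs (vertical log axes), 158 tenotomy cells in red at the left and 465 sham cells in blue. Black lines are medians, which are 20 and 56 UMIs for immediate early genes and 17 and 6 UMIs for matrix genes, while stem cell surface genes overlap almost fully, at 19 and 23.

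Members were chosen for low cycle and differentiation transcripts, yet some genes of both programs outside the rule were higher in tenotomy. Of 17 measured G1 and S phase genes, 8 were higher and 0 lower, with a median of 0.78. It was 1.2 in endothelial and 1.85 in mesenchymal cells, which were not chosen for low cycle UMIs. Cdk6, a G1 kinase, had 154.9 CPM in tenotomy and 14.99 CPM in sham, 10.3-fold higher (7.52 to 14.5), Rrm2, a ribonucleotide reductase subunit, was 12.4-fold higher (6.62 to 25.3) and Ccnd1, cyclin D1, 1.67-fold higher (1.38 to 2.01). Pcna was 1.31-fold lower (1.06 to 1.63). Of 18 measured early differentiation and sarcomere genes, 8 were higher and 1 lower, with a median of 0.79. That median turned sign in 3 of 18 alternatives, to -0.17 with at least 1 marker UMI, -0.06 with 2 different marker genes and -0.19 with members thinned to 3000 UMIs, so its direction depends on the setting. Ttn, the giant sarcomere protein titin, had 303 UMIs in 36 tenotomy members and 7 in 4 sham members, 102-fold higher (49.0 to 257). Neb, nebulin, was 14.96-fold higher (8.09 to 30.2). Hmga2, a chromatin protein of proliferating progenitors and on no list, had 72 UMIs in 25 tenotomy members and 1 in sham, a ratio of 170 (29.6 to 6809). Myl1 was 2.74-fold higher and Tnni2 2.25-fold higher, but a single cell held 67.4% and 60.3% of their tenotomy UMIs, and their folds turned sign in 4 and 3 of 18 alternatives. Without members with 2 or more S phase UMIs, 99 tenotomy and 335 sham members were left, so low cycle UMIs do not exclude S phase RNA. The log2 folds were then 4.19 for Ttn and 3.89 for Hmga2. For Hmga2, 7.41 on that scale, it was also 2.78 with at most 5% mitochondrial UMIs and 1.99 with the rule on cells thinned to 2000 UMIs.

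The other higher genes named by the bound of the interval have mixed roles. Prune2 had 125 UMIs in 42 tenotomy members and 2 in sham, a ratio of 148 (40.0 to 1232), and without the cells over the marker limit 114 and 1, a ratio of 275.6 (48.5 to 10980). Capn6, a calpain family member without protease activity, was 26.3-fold higher (16.6 to 43.9), and Myof, myoferlin of membrane fusion and repair, 22.0-fold higher (12.1 to 43.9). Dpysl3, which binds microtubules, was 27.7-fold higher, or 106.4-fold (28.6 to 892.2) on 88 and 2 UMIs without those cells, Nt5dc2 36.4-fold higher and Ahnak2 32.6-fold higher. Each of these was seen in at least 28 tenotomy members, so none rested on 1 cell.

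Surface and identity genes of stem cells split by gene. Of 22 measured, 4 were higher and 5 lower, with a median of -0.12. Over all measured genes the median was 0.23, with 17.7% higher and 8.28% lower. Vcam1, an adhesion receptor often used to sort these cells, differed little, at 599.6 CPM in tenotomy and 604 CPM in sham (1.01-fold lower, 0.927 to 1.09). Itga7, an integrin for laminin, was 2.86-fold higher (2.30 to 3.55), Gpc1, a glypican, 5.36-fold higher and Six4, a homeobox factor, 3.52-fold higher. Sdc4, a syndecan, was 2.38-fold lower (2.27 to 2.497) and Asb5 2.53-fold lower. Met, the receptor for hepatocyte growth factor, was 1.31-fold higher (1.003 to 1.71) and Fgfr4 1.26-fold lower (1.05 to 1.52). Per cell, 146 of 158 tenotomy members lay within the 5th to 95th percentile of sham for this list.

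Notch genes had 2 higher and 2 lower of 13, with a median of -0.53, and 1 higher and 2 lower of 12 without the cells over the marker limit. The receptor gene Notch1 was 1.45-fold lower (1.19 to 1.76), and Notch3 1.19-fold lower (1.02 to 1.41). The targets were farther apart. Hey1 had 25.1 CPM in tenotomy and 100.9 CPM in sham, 4.02-fold lower (2.82 to 5.91), Hes1 was 3.00-fold lower (1.90 to 5.00) and Heyl 1.85-fold lower (1.48 to 2.34). Hes6, which opposes Hes1 in other cells, was 12.4-fold higher (5.75 to 30.6) on 42 UMIs in tenotomy and 8 in sham.

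Growth factor and receptor genes were higher in 4 and lower in 2 of 17, with a median of 0.39. Igfbp5, an IGF-binding protein, had 1060 CPM in tenotomy and 244.2 CPM in sham, 4.34-fold higher (3.98 to 4.74), and Pdgfa, a PDGF ligand, was 3.86-fold higher. Igf2 was 1.67-fold higher (1.09 to 2.53), and Vegfa 3.47-fold lower (2.49 to 4.98). BMP, activin and TGF-beta genes were higher in 3 and lower in 6 of 24, with a median of -0.45, and higher in 1 and lower in 8 of 22 without the cells over the marker limit. Id3, a BMP target, was 2.58-fold lower and Bmp2, a ligand, 4.23-fold lower, while Inhba was 14.5-fold higher with 86.0% of its tenotomy UMIs in 1 cell and a log2 fold of 3.86 that was 0.07 with at least 1 Pax7 UMI. YAP and TAZ targets were higher in 4 and lower in 3 of 15, with a median of -0.23 that was above 0 in 6 of 18 alternatives. Ccn2 was 2.22-fold higher and Ccn1 3.02-fold lower. Chemokine and cytokine genes were higher in 2 and lower in 3 of 19, with a median of -0.13. Cxcl1, a neutrophil attractant, was 4.20-fold lower (3.88 to 4.54) and Csf1, which maintains macrophages, 2.61-fold higher (1.93 to 3.54). Imprinted genes were higher in 3 and lower in 4 of 16, with a median of -0.06. Meg3, a maternally expressed long RNA, had 869 against 3192 CPM, 3.67-fold lower (3.46 to 3.91), and the paternally expressed Mest had 445 against 40.9 CPM, 10.9-fold higher (8.99 to 13.24). H19 was 7.87-fold higher (4.78 to 13.5). MHC class I and interferon genes were higher in 2 and lower in 3 of 18, with a median of -0.03, and in 4 and 3 of 18 without the cells over the marker limit.

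**Figure D4:**
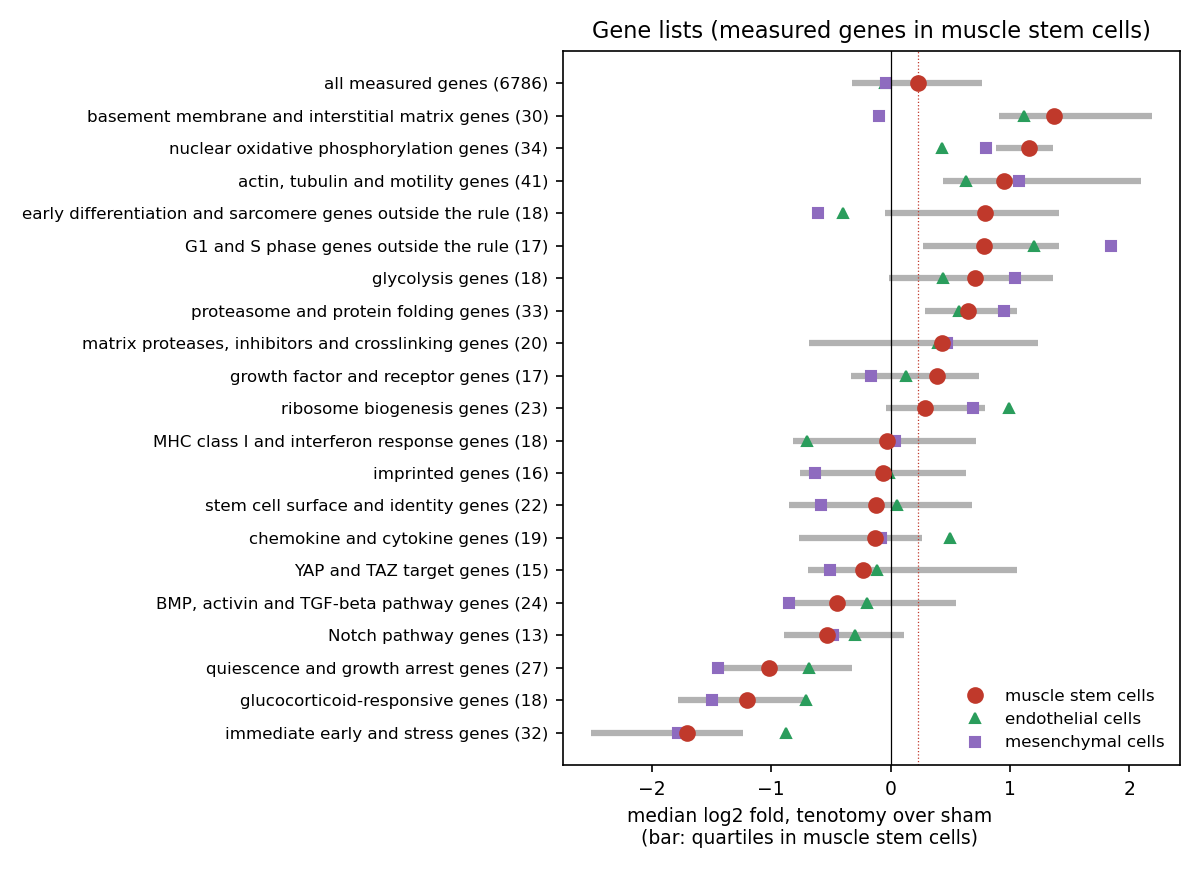
Median log2 fold of tenotomy over sham (horizontal axis) for all measured genes and 20 gene lists, with the number of genes measured in stem cells. Red circles are stem cells with their quartiles as grey bars, green triangles are endothelial and purple squares mesenchymal cells. Immediate early genes, at -1.71, are lowest in stem cells, and matrix genes, at 1.37, and oxidative phosphorylation genes, at 1.16, are highest.

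Tenotomy members differed among themselves. A split was made after the data were seen, by whether a cell thinned to 2500 UMIs held a UMI of Calcr, Chrdl2 or Nppc, the first known from resting cells and all 3 lower in tenotomy. It put 55 of 158 tenotomy members (34.8%) and 363 of 465 sham members (78.1%) on the side with such a UMI. The other 103 tenotomy members (65.2%) were deeper before thinning, at a median of 8633 UMIs against 4847, and 23 of them held a cycle UMI against 1 of the 55. In sham the 102 cells without such a UMI had a median of 6060 UMIs, and the 363 with one 6157. Differences in the 3 genes follow from the split, and the shares on each side follow from choosing genes lower in tenotomy, so neither is a result. Chrdl2 also belongs to the rule. A cell can lack such a UMI at this depth by sampling, so the sides are not sharp classes of cells.

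Gal, Erfe and Meg3 took a larger share of the UMIs of the 55 tenotomy cells with such a UMI than of the other 103. In UMIs, Gal had 1017 in the 55 and 834 in the 103, Erfe 167 and 51, and Meg3 an even 581 and 577. Gal stood at 3452 CPM in those and 791.4 CPM in the 103 tenotomy cells without, against 5052 and 3186 CPM in the matching sham cells. Erfe was at 566.9 CPM with and 48.4 CPM without in tenotomy, against 884 and 626 CPM in sham. Meg3 was at 1972 and 548 CPM in tenotomy, against 3333 and 2753 CPM in sham. Gal, Erfe and Meg3, like the split genes, were known to be lower in tenotomy when the split was made. Their levels nearer to sham are thus a description. In other genes the 55 cells were far from sham. Their immediate early list stood at 10350 CPM, against 27550 CPM in sham cells with such a UMI, and their matrix list at 11940 against 3677 CPM. Igfbp5 was at 1979 CPM in them and 808.5 CPM in the 103, against 240.7 and 252 CPM in sham. Col4a1 was at 1090 and 381.5 CPM in tenotomy and at 343.7 and 383.7 CPM in sham, and Tagln, a smooth muscle actin-binding protein, at 574 and 182 CPM against 65.0 and 114 CPM. The neutrophil marker list stood at 1470 CPM in the 55 cells and 141 CPM in the 103, and the macrophage list at 1368 and 641.5 CPM. Without the cells over the marker limit, which left 52 and 94, the neutrophil list was at 67.8 and 151.8 CPM and the macrophage list at 489.7 and 365.5 CPM. Gal, Erfe, Meg3, Igfbp5, Col4a1 and Tagln kept their order then, with Gal at 3710 and 875.4 CPM. The part of such RNA in these values was not tested.

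The 103 tenotomy cells without such a UMI had more UMIs of early differentiation and of G1 and S phase genes for their depth. The early differentiation list stood at 1862 CPM in them and 753.5 CPM in the 55, and the G1 and S phase list at 1286 and 702.6 CPM. Ttn had 302 UMIs in them and 0 in the 55, and Hmga2 72 and 0. Lgals3 stood at 421 CPM without and 166 CPM with (438.2 and 45.2 CPM when the cells over the marker limit are left out), Mest at 545 and 98.4 CPM, and Capn6 at 202 and 33.9 CPM. The oxidative phosphorylation list was at 12730 CPM without and 7709 CPM with, against 5983 and 5638 CPM in sham. Pax7 stood at 81.5 CPM with and 99.6 CPM without in tenotomy and at 123.6 and 98.1 CPM in sham. Pax7 and the split gene Chrdl2 both count toward the marker UMIs of the rule, so these Pax7 values are a description. Fos and Hspa1a were low on both sides of the split in tenotomy, at 179.9 and 213.8 CPM with and at 82.6 and 171.8 CPM without. In sham they were at 1278 and 2083 CPM with and at 959 and 2139 CPM without.

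**Figure D5:**
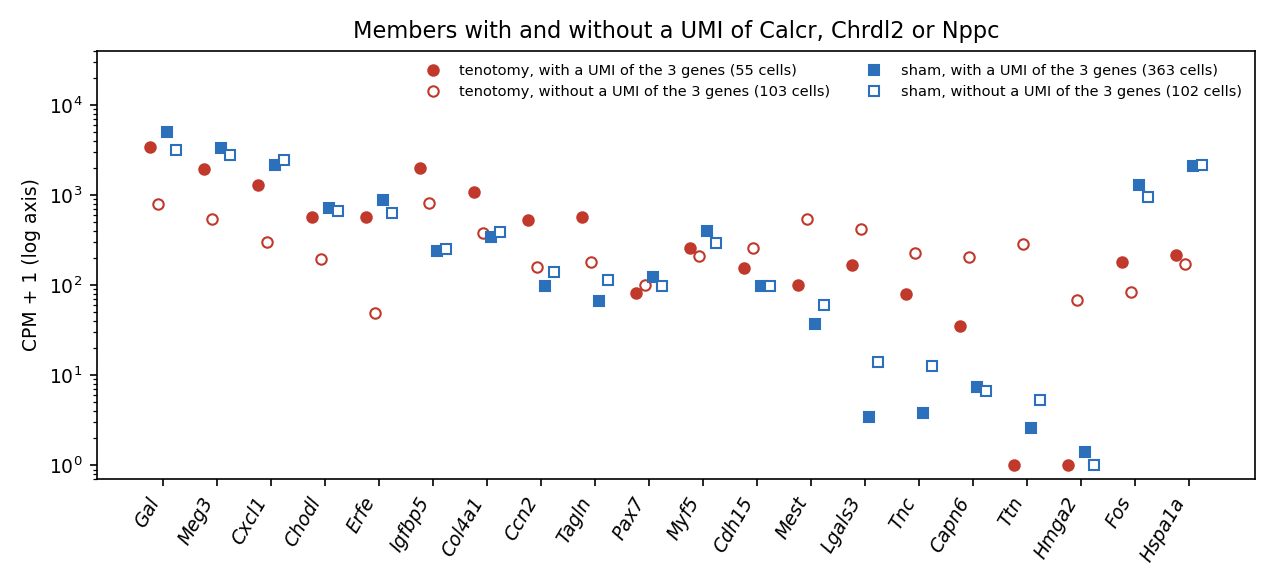
CPM plus 1 (vertical log axis) of 20 genes in stem cells with (filled) and without (open) a UMI of Calcr, Chrdl2 or Nppc, tenotomy as red circles and sham as blue squares. Gal, Meg3 and Erfe are closer to the sham level in the 55 filled than in the open tenotomy cells, Ttn and Hmga2 have 0 UMIs there, and Fos and Hspa1a are low in both tenotomy sets. The split genes were chosen as lower in tenotomy, so nearness to sham is a description.

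The tenotomy library also allowed the members to be set beside its cycling, differentiating and doubly marked myogenic cells, whose median depths were 17380, 18190 and 29590 UMIs. Igfbp5 was at 1060 CPM in members and at 310, 164 and 159 CPM in these states, against 244.2 CPM in sham members. Vcam1 was at 599.6 CPM in members and at 267, 98.0 and 117 CPM, and Col4a1 at 536.9 CPM and then 185, 41.0 and 33.6 CPM. Both genes were thus higher in the undifferentiated, non-cycling cells than in each other state. Chodl was at 278.8 CPM in members and at 68.4, 18.1 and 6.43 CPM, against 700.4 CPM in sham members. Pax7 was at 96.6 CPM in members, 76.8 in cycling, 15.3 in differentiating and 22.8 in doubly marked cells. Ttn, at 223.5 CPM in members, was at 327 CPM in cycling and 3148 CPM in differentiating cells, and Hmga2, at 53.1 CPM, at 63.1 and 16.7 CPM. The matrix list was at 11530 CPM in members, 7493 in cycling, 3566 in differentiating and 3447 CPM in doubly marked cells. In sham members it was at 3745 CPM. Without the cells over the marker limit it was at 8844 CPM in the 52 and 6903 CPM in the 94 tenotomy members of the split. These values lie on both sides of that of cycling cells, to which the limit was not applied. The order of members and cycling cells is thus not settled. The immediate early list was at 7697 CPM in tenotomy members and at 6059, 5976 and 4656 CPM in the other states, all below the 27210 CPM of sham members.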

How the data were processed

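The data are single-cell RNA-seq counts of 1 tenotomy and 1 sham library. The deposited files hold raw counts of UMIs per gene and barcode with no normalization, and the submitters' processing notes name Cell Ranger 4.0.0 and mm10. The sources do not state the gene annotation. Symbols were found for 32158 of 32285 gene IDs, and coordinates came from GENCODE on GRCm38.

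Cells were chosen by the limits given above and no doublets were removed; scrublet scores (scanpy 1.11.5) were used in an alternative, with the tenotomy threshold for both libraries, which called 320 tenotomy and 190 sham cells. UMIs were summed over members per library and scaled to CPM. Fold intervals are exact conditional binomial, shares of cells Clopper-Pearson, and the ratio of shares has an interval on the log scale, all at 95%. A count of 0 was taken at 3 UMIs per library sum, which gives a bound. CPM stands for UMIs per 1000000. For shares of cells with a UMI and for list UMIs per cell, each cell was thinned to 2500 UMIs, leaving out 4 tenotomy and 21 sham members. The fold and interval code was checked on simulated data. With 1 library per group no test was made.

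Named genes are those at least 2-fold apart with a CPM, in the library where they are higher, of at least 10% of that over all its kept cells, 15 each way by the interval bound nearest to 1, without mitochondrial, ribosomal, unnamed, myofibre, erythroid, neutrophil and macrophage genes. A fixed set and up to 5 genes per list were added, and 1 gene that these rules name is not reported here. The members, the 20 role lists, the 9 marker lists and these rules were chosen with earlier results of these data known. In the lists 1 symbol was absent from the files. Comparison cells had 0 UMIs of the 5 marker genes and of Ptprc, and at least 2 of Pecam1 with 0 of Pdgfra (endothelial) or the reverse (mesenchymal).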

Additional observations from a re-analysis of the deposited data

How the results depend on the processing

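No paired analysis was possible because each group is 1 pooled library and no replicate exists. Every alternative named here changes 1 choice. The ratio of shares stayed below 1 in all 14 alternatives and moved beyond its interval in 2 of them, to 0.292 where the rule was applied to cells thinned to 2000 UMIs and to 0.118 without members with macrophage or neutrophil UMIs. Counts of genes at least 2-fold higher and lower depend on how many genes are measured and on depth. They were 554 and 312 with at most 5% mitochondrial UMIs, 265 and 226 with the rule on thinned cells, 523 and 288 without S phase members, and 483 and 306 with members thinned to 3000 UMIs. They were 1901 and 859 with at least 20 UMIs, 373 and 282 with at least 200 UMIs, 2238 and 1099 at 1.5-fold, and 394 and 201 at 3-fold. Without macrophage or neutrophil UMIs 732 were higher and 414 lower. Centred on the median fold, 783 were higher and 808 lower, so the excess of higher over lower genes turns round. The median log2 fold of all genes moved to 0.15, 0.06, 0.17 and 0.14 in the first 4 of these settings, to 0.27 and 0.06 with at least 20 and 200 UMIs, to 0.20 without macrophage or neutrophil UMIs, to 0.00 when centred, and to 0.16 without the cell richest in each gene.

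Of 2972 values of named genes, 2101 stayed inside the counting interval, 842 moved and 29, all of genes at least 2-fold apart, turned sign. A further 50 values, of 13 genes under 2-fold apart, had the other sign and stand among the first 2 numbers. Of 504 list medians, 438 stayed within 0.5 (log2), 65 moved and 1, of a list with a median past 1, turned sign. A further 40 medians, of 10 lists with smaller medians, had the other sign, among them 3 of early differentiation genes (-0.19 to -0.06), 6 of YAP and TAZ targets (0.10 to 0.88), 1 of growth factor genes (-0.08), 1 of BMP genes (0.04), 3 of stem cell surface genes (0.06 to 0.11), 3 of mesenchymal markers (-1.03 to -0.65) and 4 of myofibre markers (-1.72 to -0.28). The 29 genes reported by interval bound stayed at least 2-fold apart in every alternative that gave a value. Ibsp and Mmp13, carried by 1 cell with 0 UMIs in sham, gave no value where that cell was left out. They could only be far apart or absent, so for them this says nothing about stability. Other named genes described as at least 2-fold apart came inside 2-fold in at least 1 alternative, at the least to -0.83 for Asb5, -0.98 for Calcr, 0.57 for Ccn2, -0.75 for Cd34, 0.98 for Cdkn1c, -0.60 for Chodl, 0.52 for Col1a1, 0.85 for Gapdh, -0.74 for Hes1, -0.92 for Hey1, -0.83 for Id3, 0.07 for Inhba, 0.92 for Ndufa4, -0.75 for Sdc4, 0.98 for Six4, 0.74 for Tpm2 and -0.60 for Vegfa. The median of Schwann cell markers was 0.67 with the rule on thinned cells. With at least 1 marker UMI the log2 folds were -0.58 for Acta1, -0.15 for Eno3, -0.92 for Myl1, -0.53 for Mylpf and -1.04 for Tnni2, and with at least 3 -1.63 for Acta1, -0.08 for Myl1, -0.03 for Mylpf and -0.32 for Thbs4. With 2 different marker genes, an alternative added after the data were seen, they were -1.66 for Acta1, -0.17 for Myl1 and -0.01 for Tnni2, and with members thinned to 3000 UMIs -2.68 for Acta1, -0.83 for Myl1 and -2.02 for Tnni2. Camp was at 2.29 with a Pax7 UMI, 1.29 with no cycle UMI, 0.67 with the rule on thinned cells, 1.15 without macrophage or neutrophil UMIs, 1.27 without cells over the marker limit, 1.68 with members thinned and 0.98 without its richest cell. With the rule on thinned cells Col6a3 was at -0.13, Il33 at -0.33, Kcna1 at 0.67 and Ly6a at -0.99. Without macrophage or neutrophil UMIs Kcna1 was at 0.09 and Thbs4 at -0.93, and as a mean over cells Ly6a was at -0.11. With the settings of the Results, the log2 folds were 1.16 for Acta1, -1.89 for Camp, 1.82 for Il33 and -2.57 for Kcna1. Without cells over the marker limit they were 0.38, 1.27, 0.47 and -1.97. The cause of these moves was not tested. Leaving out cells over the marker limit or the richest cell was also chosen after the data were seen.

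The limits of depth are those of 162 tenotomy cells: Calcr rests on 23 UMIs in tenotomy, Hes6 on 42, and a gene under 50 UMIs in all was not measured.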
